A study of Mus musculus with 12 samples.

Results

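The Ly6 family surface proteins described here are 6 mouse genes, Ly6a, Ly6c1, Ly6c2, Ly6d, Ly6e and Ly6i, of the 53458 genes to which the deposited transcript rows were summed. They account for 36 of the 136176 transcripts assigned to a gene. The members were chosen by symbol, on measured values: several of them were higher with the CD40 agonist in both tumor states. Their levels in the agonist comparisons, the counts of members past a threshold there, and the interaction built from those comparisons are therefore a description, with no p-values for the members. Member p-values are given for the 2 tumor comparisons, whose libraries also entered the agonist comparisons. All 6 passed the filter on low counts. Of 49 listed symbols of the wider Ly6 family, 47 were found in the files.

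Ly6 proteins are small cysteine-rich proteins that fold into the compact three-fingered domain named after this family, and most are held on the outer cell surface by a glycosylphosphatidylinositol (GPI) lipid anchor. Mouse immunology uses several of them as markers. Ly6a (Sca-1) marks hematopoietic stem cells and is induced on lymphocytes by interferon, Ly6c1 and Ly6c2 carry the Ly-6C antigen of inflammatory monocytes, and Ly6d marks early B lineage commitment. Ly6e is a broadly expressed, interferon-inducible member that affects the entry of several viruses.

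The series holds RNA-seq of cDC1, the conventional dendritic cells of type 1, which are specialized in cross-presenting antigen to CD8 T cells, from inguinal lymph nodes of mice. There were 12 libraries in 4 groups of 3: no tumor and no CD40 agonist (NoTumor-NoCD40), no tumor with CD40 agonist (NoTumor-CD40), tumor and no agonist (Tumor-NoCD40), and tumor with agonist (Tumor-CD40). The tumor was a subcutaneous KPC tumor, KPC being the usual name of a mouse pancreatic cancer model, and CD40 is a receptor on dendritic cells that is engaged by CD40 ligand on helper T cells. The labels used here give no mouse strain, sex, age, dose, time or sorting gate, and no statement that the libraries of a group came from separate animals, so a p-value here speaks only of the spread among these libraries. Expected counts per library summed to between 22855143 and 27163393. All 11 cDC1 markers (Xcr1, Clec9a and Batf3 among them) had counts in every library, with a summed level between 2432 and 11239 CPM (counts scaled to library size). The lowest sum was in tumor without agonist library 3 and the highest in library 2 of the same group.

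The 6 genes lie on chromosome 15 of GRCm38. Ly6d is at 74762056 to 74763620, Ly6e at 74955051 to 74959905, Ly6i at 74979534 to 74983430, Ly6a at 74994877 to 74998031, Ly6c1 at 75044018 to 75048830 and Ly6c2 at 75108158 to 75111970. Ly6e is on the plus strand and the other 5 are on the minus strand. The first 60 coding bases of the member transcript with the highest mean level are shown, from the GENCODE M21 transcripts, because they show how alike 4 of the members are to a short-read program. Capitals mark bases that differ from Ly6c2 at the same position.

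Ly6c2: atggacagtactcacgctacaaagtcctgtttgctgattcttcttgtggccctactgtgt
Ly6c1: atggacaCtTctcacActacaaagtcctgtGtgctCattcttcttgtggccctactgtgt
Ly6a: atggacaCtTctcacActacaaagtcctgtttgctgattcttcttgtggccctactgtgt
Ly6i: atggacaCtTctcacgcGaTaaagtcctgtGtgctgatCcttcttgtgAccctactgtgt
Ly6e: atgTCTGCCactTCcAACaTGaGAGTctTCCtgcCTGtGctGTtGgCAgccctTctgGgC
Ly6d: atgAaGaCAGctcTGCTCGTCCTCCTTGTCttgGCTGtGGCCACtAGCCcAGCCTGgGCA

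Ly6c1, Ly6a and Ly6i differ from Ly6c2 at 5, 3 and 7 of these 60 positions. Over the whole coding sequence, Ly6c1 and Ly6c2 were 97.7% identical in 396 aligned bases, Ly6a and Ly6i were 86.4% identical in 405, and the other pairs among these 4 genes were between 83.6% and 83.8% identical. Ly6d and Ly6e were between 55.8% and 65.7% identical to each other and to the rest. Of the 1758 distinct runs of 31 bases in the Ly6c1 transcripts, 33.0% also occur in Ly6c2 and 15.7% in Ly6a, while Ly6d and Ly6e share none with another member. The deposited estimates thus divide some reads between Ly6a, Ly6c1, Ly6c2 and Ly6i by a model, and single values of Ly6c1 and Ly6i, the 2 members of this set with the fewest reads, are uncertain for that reason.

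Levels between genes were compared per transcript length, in TPM (scaled by transcript length and library size). Ly6e had the highest level of the 6 in every group and every library, with means of 857 ± 118 TPM without tumor or agonist, 697 ± 254 with agonist alone, 648 ± 483 with tumor alone and 825 ± 71.6 with both (SD, n = 3 libraries in each group, as for all group values here). It ranked between 172 and 212 among all genes by its group mean. Without tumor or agonist, Ly6a followed at 25.8 ± 8.04 TPM, Ly6c2 at 15.3 ± 3.59, Ly6d at 4.25 ± 3.82, Ly6c1 at 1.23 ± 0.164 and Ly6i at 0.947 ± 0.626. In that group the library ranges of Ly6a and Ly6c2 overlapped, as did those of Ly6c1 and Ly6i, so these neighbours could not be ordered.

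With tumor and agonist the order by mean TPM was Ly6e, Ly6a at 213 ± 25.9, Ly6d at 117 ± 73.9, Ly6c2 at 83.2 ± 13.6, Ly6i at 4.97 ± 3.43 and Ly6c1 at 4.90 ± 3.44. The ranges of Ly6a and Ly6d overlapped there, as did those of Ly6d and Ly6c2 and those of Ly6i and Ly6c1. Ly6e held 94.7% of the summed mean TPM of the 6 genes without tumor or agonist and 66.1% with both, while the share of Ly6a was 2.86% and 17.0%. Ly6d went from rank 8864 among all genes to rank 818.

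**Figure D1:**
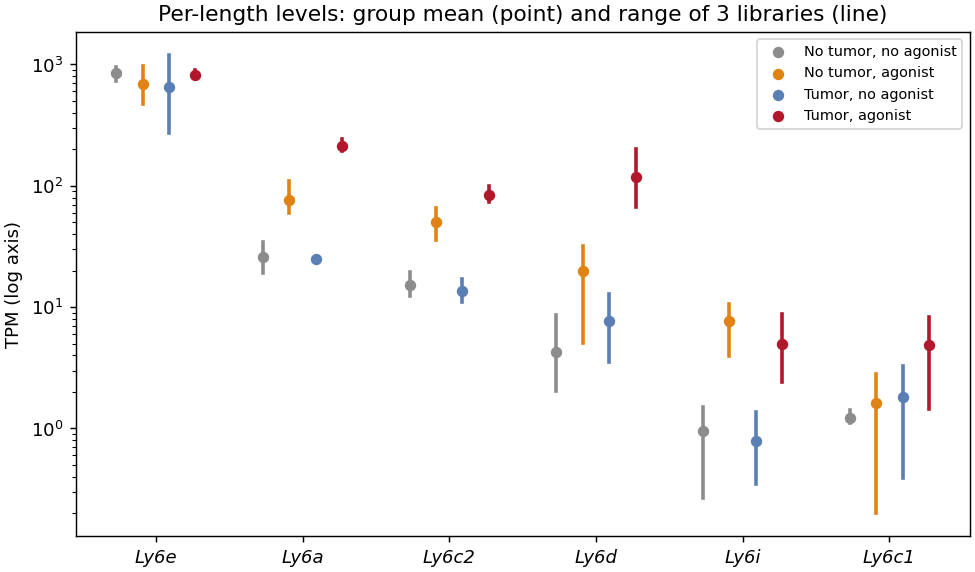
Per-length level of each Ly6 member in TPM (log axis) by group, as the group mean (point) and the range of its 3 libraries (line). Ly6e lies highest in all 4 groups, and Ly6a, Ly6c2 and Ly6d lie highest with tumor and agonist, where their means are 213, 83.2 and 117 TPM.

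Differences between groups were fitted on counts and are given in CPM. Ly6a (Sca-1) was measured at 24.3, 33.4 and 17.1 CPM in the 3 libraries without tumor or agonist and at 110, 55.6 and 48.7 CPM with agonist alone. It was measured at 24.95, 23.3 and 21.7 CPM with tumor alone and at 200, 175 and 212 CPM with tumor and agonist. Every agonist library lay above every library without agonist, and all 3 libraries with tumor and agonist lay above the rest. The fitted log2 fold change with agonist was 1.52 ± 0.29 (SE) without tumor and 3.07 ± 0.30 with tumor. Libraries whose titles open with the same number gave agonist ratios between 1.66 and 4.55 without tumor (2 numbers) and between 7.51 and 9.78 with tumor (3 numbers). Library 3 without tumor or agonist shares its number with no other library, so it is in none of these ratios.

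Ly6c2, one of the pair of Ly-6C genes, was measured at 12.01, 14.8 and 9.18 CPM without tumor or agonist and at 53.4, 24.2 and 33.8 CPM with agonist alone. Its values were 7.44, 10.6 and 8.65 CPM with tumor alone and 57.7, 47.4 and 71.4 CPM with both. The agonist groups did not overlap with their controls in either tumor state, but the agonist groups with and without tumor overlapped. The log2 fold change with agonist was 1.63 ± 0.29 without tumor and 2.72 ± 0.30 with tumor. Ratios within title numbers ran from 1.64 to 4.44 and from 4.48 to 8.26.

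Ly6i, a little-studied member next to Ly6a, was rare. It was measured at 1.11, 1.04 and 0.410 CPM without tumor or agonist, at 5.55, 3.53 and 6.19 CPM with agonist alone, at 0.785, 0.941 and 0.509 CPM with tumor alone and at 3.42, 6.44 and 3.57 CPM with both. The 6 agonist libraries all lay above the 6 others, and the agonist groups with and without tumor overlapped. The log2 fold changes with agonist were 2.56 ± 0.52 and 2.59 ± 0.54 without and with tumor. Ratios within title numbers ran from 3.41 to 5.002 and from 4.35 to 7.01.

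Ly6d, the early B lineage marker, was measured at 9.26, 2.15 and 1.89 CPM without tumor or agonist, at 33.2, 4.87 and 18.2 CPM with agonist alone, at 13.3, 3.54 and 6.03 CPM with tumor alone and at 86.1, 63.7 and 188 CPM with both. The agonist groups overlapped with their controls without tumor and did not with tumor, where library 3 was the highest of all 12. The log2 fold change with agonist was 2.06 ± 0.73 without tumor and 3.90 ± 0.68 with tumor. The call with tumor was lost when library 3 with tumor and agonist was left out (3.32), and when library 1 (4.55) or library 3 (3.77) with tumor alone was. Ratios within title numbers ran from 2.27 to 3.58 and from 6.46 to 31.2.

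Ly6e, the most abundant member, did not separate by agonist. Its values were 1072, 1396 and 1158 CPM without tumor or agonist, 936, 1257 and 529 CPM with agonist alone, 695, 1493 and 317 CPM with tumor alone and 1116, 1205 and 1035 CPM with both. All groups overlapped, and the widest range, 4.71-fold, was among the 3 libraries with tumor alone. The log2 fold change with agonist was -0.41 ± 0.42 without tumor and 0.42 ± 0.42 with tumor. Ly6c1, the other Ly-6C gene, ranged from 0.196 to 3.88 CPM over the 12 libraries, overlapped between all groups compared, and had log2 fold changes with agonist of 0.58 ± 0.79 and 1.43 ± 0.71. Of the summed reads of Ly6c1 and Ly6c2, Ly6c2 held between 86.2% and 99.2% in every library.

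**Figure D2:**
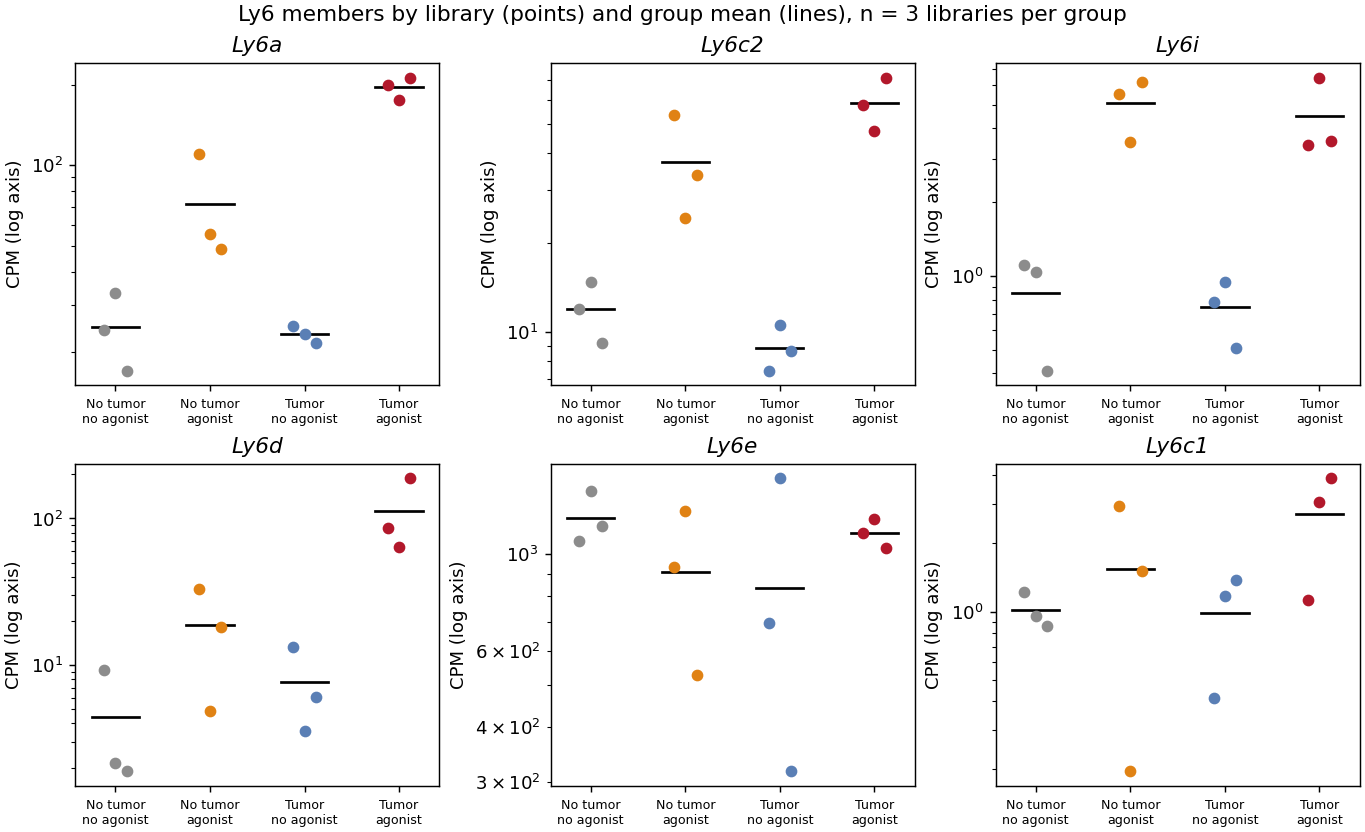
Level of each Ly6 member in CPM (log axis, own scale per panel) in the 3 libraries of each group (points) with the group mean (line). Ly6a, Ly6c2 and Ly6i lie higher in all agonist libraries than in libraries without agonist of the same tumor state, Ly6d does so with tumor, and Ly6e and Ly6c1 overlap.

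By edgeR's quasi-likelihood test over all 18095 genes, with an adjusted p under 0.05, 3 of the 6 members (Ly6a, Ly6c2 and Ly6i) were higher with agonist without tumor, where 1.36% of all genes were, and 4 (these and Ly6d) with tumor, where 0.641% were. In 3 members the agonist libraries all lay above their controls without tumor and in 4 with tumor, against 11.2% and 6.5% of all genes. The choice of the members used these contrasts, so nothing is read from these counts. The calls without tumor changed when 1 library was left out. None of the 6 was past the threshold with any 1 of the 3 libraries lacking both tumor and agonist left out. The same held for library 1 with agonist alone, and without library 3 with agonist alone 1 was (Ly6a). The count over all genes, 261, moved too, to between 22 and 946 over the other settings. Over these the log2 fold change ran from 1.08 to 1.79 for Ly6a, from 1.29 to 1.86 for Ly6c2 and from 1.57 to 2.79 for Ly6i. With tumor, 2 passed without library 3 with tumor and agonist and without library 1 or library 3 with tumor alone. The call of Ly6i with tumor was lost when any 1 of 10 of the 12 libraries was left out. The 2 agonist comparisons have different control libraries. The median log2 fold change over the 6 members was 1.57 and 2.66, beside medians over all genes of -0.04 and -0.02.

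The choice of the members did not use the tumor comparisons themselves. Both comparisons are made of libraries that the choice did use, so their p-values are not independent of it. Without agonist, tumor and no tumor overlapped for each of the 6 members, against 8.98% of all genes without overlap in either direction, and the log2 differences lay between -0.53 for Ly6e and 0.76 for Ly6d. Adjusted p-values from edgeR ran from 0.779 to 0.997, and 0 of 6 members passed, as did 0% of all genes. No member had an unadjusted p under 0.05, as 5.82% of all genes had, and DESeq2 and limma-trend on log2(TPM + 1) also called 0 members. The standard errors ran from 0.30 for Ly6a to 0.85 for Ly6c1.

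Among agonist libraries, 2 members lay higher in all 3 tumor libraries than in all 3 without tumor, Ly6a and Ly6d, against 6.68% of all genes. The log2 difference of Ly6a was 1.45 ± 0.28 (edgeR, unadjusted p = 0.000149, adjusted p = 0.0592), with means of 196 ± 18.9 CPM with tumor and 71.5 ± 33.8 CPM without. The difference was positive within each of the 3 title numbers, with ratios between 1.81 and 4.37. It did not pass the threshold. It did under 5 of 20 other settings, among them without library 1 with agonist alone (1.91, adjusted p = 0.0364) and without library 2 with tumor alone (adjusted p = 0.0402); adjusted p over the 20 ran from 0.000803 to 0.283. For Ly6d the log2 difference was 2.59 ± 0.62 (edgeR, adjusted p = 0.147), from 18.7 ± 14.2 to 113 ± 66.2 CPM, with ratios between 2.60 and 13.1 within title numbers. With library 3 with tumor and agonist left out, this difference was 2.01. Over 19 other settings the Ly6d difference ran from 2.01 to 3.29, and it passed the threshold under 2 of them.

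Ly6c2 had a log2 difference with tumor, among agonist libraries, of 0.67 ± 0.27 (edgeR, adjusted p = 0.484), and Ly6i, Ly6e and Ly6c1 of -0.18 ± 0.39, 0.30 ± 0.42 and 0.83 ± 0.66. By edgeR 0 of 6 members passed in this comparison, where 0.199% of all genes did. The members with an unadjusted p under 0.05 were 3, Ly6a, Ly6c2 and Ly6d, where 9.33% of all genes were under it. DESeq2 called 1 member and limma-trend 0, and over all genes DESeq2 called 166, limma-trend 12 and edgeR 36.

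The interaction is the agonist difference with tumor minus that without. It is built from the contrasts that chose the members, so its values are a description too. For Ly6a it was 1.55 ± 0.41 on the log2 scale, for Ly6c2 1.10 ± 0.42, for Ly6d 1.83 ± 1.0005, for Ly6e 0.84 ± 0.59, for Ly6c1 0.85 ± 1.08 and for Ly6i 0.03 ± 0.81. Of all genes, 52.0% had an estimate above 0 and 0% passed the threshold by edgeR. Of the 6 members, 0 passed by edgeR, DESeq2 or limma-trend, and 2, Ly6a and Ly6c2, had an unadjusted p under 0.05, as had 9.80% of all genes. Nothing is read from these counts.

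**Figure D3:**
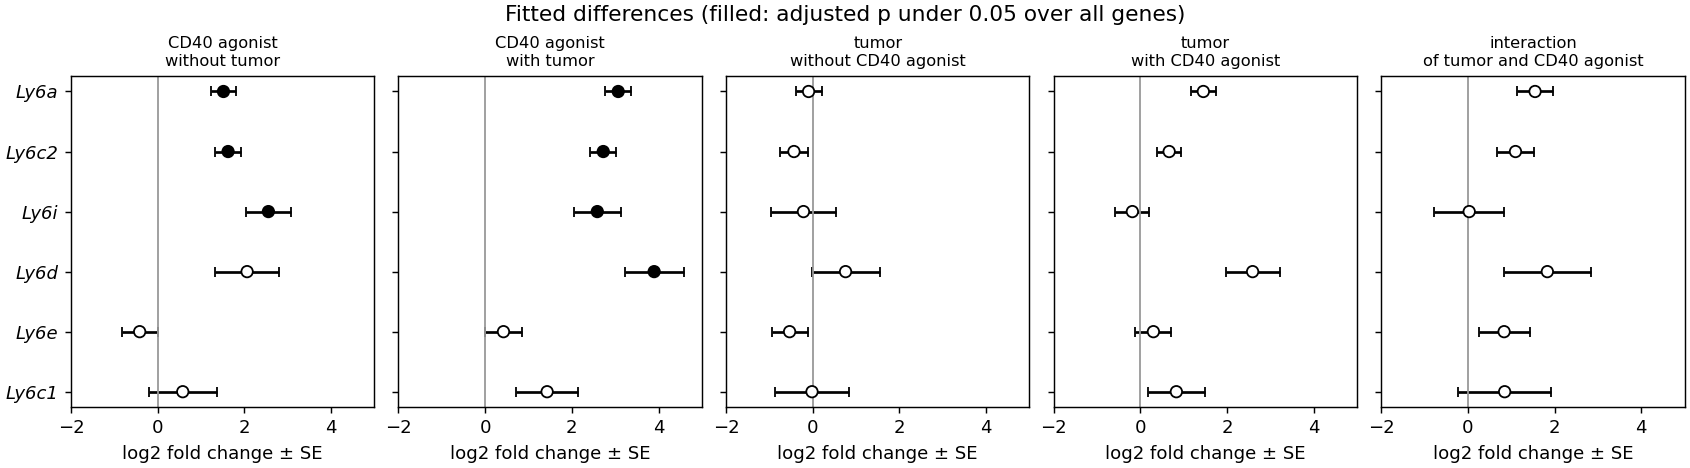
Fitted log2 fold change with its standard error (bars) for each member in the 2 agonist comparisons, the 2 tumor comparisons and the interaction. Filled points passed an adjusted p of 0.05 over all genes: Ly6a, Ly6c2 and Ly6i with agonist in both tumor states and Ly6d with tumor, and none in the other 3 panels. The members were chosen on the 2 agonist comparisons, so filled points there are a description and not a test.

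Markers of other cell types moved with some members. The summed level of 11 B cell markers (such as Cd79a, Cd79b and Ms4a1), all with counts in every library, was between 65.6 and 134 CPM without tumor or agonist, between 107 and 251 with agonist alone, between 76.1 and 179 with tumor alone and between 730 and 2053 with both. Ly6d and this sum were highest in the same library, tumor with agonist library 3, at 188 and 2053 CPM. By edgeR, 8 of the 11 B cell markers were higher with agonist in tumor-bearing mice and 4 were higher with tumor among agonist libraries. Of all genes, 0.641% were higher in the first comparison, and 0.199% passed in either direction in the second. With agonist without tumor, 9 of the 11 had an estimate above 0 (median 1.45) and 0 passed. There 6 had an unadjusted p under 0.05 (edgeR), as had 18.4% of all genes. With tumor without agonist, 9 of the 11 had an estimate above 0 (median 0.60) and 0 passed. In bulk samples a change in the number of cells of one type cannot be told apart from a change in the RNA per cell. The part of B cell RNA in the Ly6d and Ly6a values was not tested.

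The 10 plasmacytoid dendritic cell markers, a cell type known to carry Ly-6C, summed to between 177 and 280 CPM without agonist and between 318 and 587 with agonist. Without tumor, most of the rise in this list was Spib, which B cells also express, from 42.6 ± 23.8 to 251 ± 113 CPM with agonist. Of the 10 markers, 7 had an estimate above 0 with agonist without tumor (median 0.47) and 6 with tumor (median 0.16). The defining marker Siglech was between 0.357 and 5.62 CPM in all 12 libraries. The 11 monocyte markers summed to between 447 and 959 CPM without agonist and between 255 and 827 with agonist. Of these 11, Chil3 and Ms4a4c were higher with agonist in tumor-bearing mice (edgeR), and 7 of the 11 had an estimate above 0 there and 4 without tumor. The median log2 difference with agonist over the 11 was 0.80 with tumor and -0.47 without. Ccr2 is a chemokine receptor used as a marker of Ly-6C-high monocytes. It was measured at 230 ± 61.9 CPM without tumor or agonist and at 44.8 ± 43.3 with agonist alone. Its level was 93.7 ± 53.1 CPM with tumor alone and 22.0 ± 5.28 with both. Its log2 differences with agonist, -2.36 ± 0.61 without tumor and -2.09 ± 0.63 with tumor, did not pass (edgeR, adjusted p = 0.0726 and 0.204).

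The 8 neutrophil markers summed to at most 34.3 CPM, with Camp at 0 in all libraries. Of these, 6 were tested and 0 passed by edgeR, with a median log2 difference with agonist of 2.55 without tumor and 2.63 with tumor. The 10 endothelial markers, of a cell type known to carry Sca-1 and Ly-6C, summed to between 23.4 and 44.0 CPM without agonist, between 32.6 and 58.0 with agonist alone and between 52.1 and 105 with both. Kdr, the endothelial VEGF receptor, was higher with agonist without tumor (2.50 ± 0.57) and with tumor (2.71 ± 0.52) by edgeR, the only 1 of 8 tested that passed. With agonist, 6 of these 8 had an estimate above 0 without tumor (median 0.999) and 8 with tumor (median 2.06). The 9 macrophage markers summed to between 117 and 236 CPM in all libraries. Of these, Siglec1, an interferon-inducible lectin of macrophages, was higher with agonist in tumor-bearing mice, and C1qb and Marco were higher with tumor among agonist libraries (edgeR), where the list's median was 1.71. The cDC1 sum had a median of 9685 CPM without tumor or agonist, 4825 with agonist alone, 4553 with tumor alone and 4383 with both. None of the 11 cDC1 markers passed by edgeR in either agonist comparison, where 1 and 0 had an unadjusted p under 0.05. Of all genes, 18.4% and 9.96% were under it. With agonist, 2 of these 11 had an estimate above 0 without tumor (median -0.75) and 1 with tumor (median -0.26). In the tumor comparisons 2 of the 11 did without agonist (median -0.55) and 2 with it (median -0.28). The 10 T cell markers summed to between 174 and 911 CPM, highest in library 3 with tumor alone. By edgeR 0 of them passed in any comparison. With agonist, 4 of the 10 had an estimate above 0 without tumor and 0 with tumor. In both tumor comparisons all 10 did, with medians of 1.03 without agonist and 0.67 with it. The sums of the natural killer cell, type 2 conventional dendritic cell, plasma cell and stromal markers reached at most 56.9, 187, 349 and 10.4 CPM. Of 8 type 2 markers, 1 was higher with agonist without tumor (edgeR), where 1.36% of all genes were. With agonist, 6 of these 8 had an estimate above 0 without tumor (median 0.56) and 7 with tumor (median 0.44). Of 7 tested plasma cell markers, 1 was higher with tumor among agonist libraries, where 0.199% of all genes passed in either direction. The part of these cells in the member values was not tested.

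**Figure D4:**
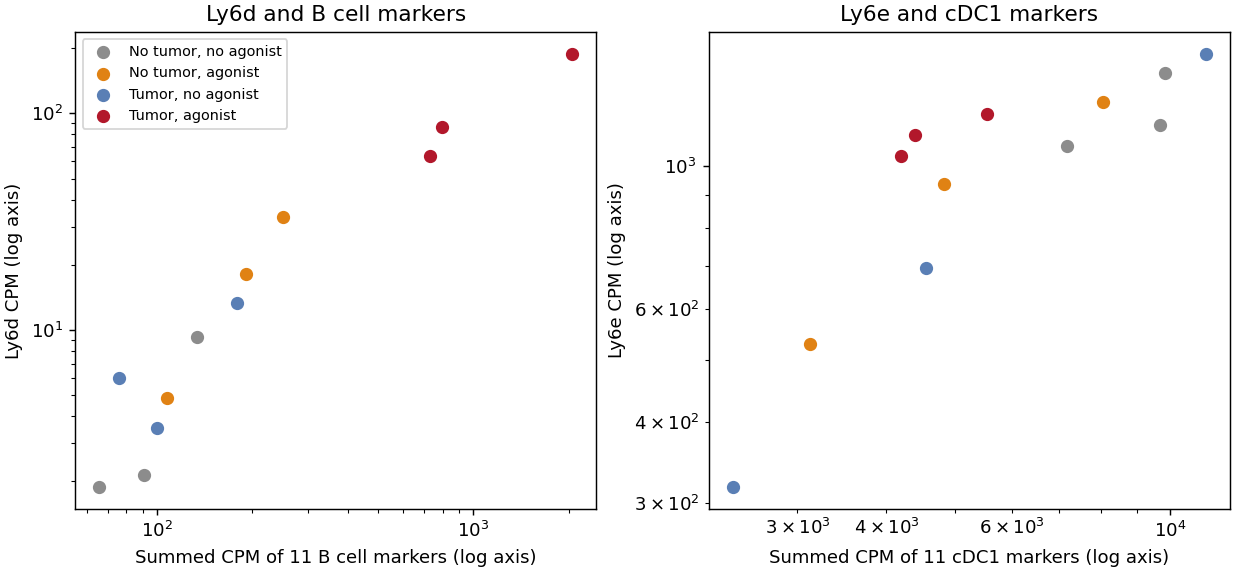
Ly6d against the summed level of 11 B cell markers (left) and Ly6e against the summed level of 11 cDC1 markers (right), in CPM on log axes, one point per library, colored by group. The 3 libraries with tumor and agonist have the highest Ly6d (63.7 to 188 CPM) and the highest B cell sums (730 to 2053 CPM), and the library with the lowest Ly6e (317 CPM) has the lowest cDC1 sum (2432 CPM).

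The genes most like each member across the 12 libraries, by Pearson's r of log2 CPM, are given as a description. Compared were 10218 genes whose mean reached 5 CPM, and all points share the group structure and, through it, depth and cell makeup. For Ly6a they were Tlr1 (r = 0.935), a receptor for bacterial lipopeptides, Ms4a1 (0.935), the B cell surface protein CD20, and Ifi27l2a (0.933), an interferon-induced gene. For Ly6c2 they were the interferon-induced genes Ifi27l2a (0.960), Irgm1 (0.949) and Oas1a (0.943). For Ly6i they were Isg15 (0.969), Rsad2 (0.969) and Zbp1 (0.956), also interferon-induced. For Ly6d they were Cd79a (0.982), part of the B cell receptor, Cr2 (0.980), the complement receptor CD21 of B cells, and Cybb (0.979), which encodes part of the NADPH oxidase.

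The genes most like Ly6e were Btla (0.978), an inhibitory receptor, Napsa (0.976) and Asb2 (0.976), all with their lowest library in the group with tumor alone, as had Ly6e. For Ly6c1 r was lower, with Pla2g15 (0.873), Rfwd3 (0.862) and Dbr1 (0.859). Among the members themselves, r was 0.957 for Ly6a and Ly6c2, 0.900 for Ly6c2 and Ly6i and 0.888 for Ly6a and Ly6d, while Ly6e had r between -0.07 and 0.22 with the other 5.

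Genes known to respond to interferon were counted next to the members because Ly6a, Ly6c2 and Ly6i had such genes among those most like them. Of 30 interferon-induced reference genes, 14 were higher with agonist without tumor and 11 with tumor, and none was lower (edgeR). Of all genes, 1.36% and 0.641% were higher. The 30 include Ifi27l2a, Oas1a, Isg15, Rsad2 and Zbp1, so the counts partly repeat the likeness given above. Over the 30 genes the median was 1.11 and 1.42 on the log2 scale, beside -0.04 and -0.02 over all genes. Without tumor the largest were Oasl2 (3.09 ± 0.33, adjusted p = 0.00164) and Oas3 (2.89 ± 0.23, adjusted p = 8.24e-05), antiviral oligoadenylate synthetase genes. With tumor the largest were Rtp4 (3.79 ± 0.55, adjusted p = 0.00721) and Ifi27l2a (2.40 ± 0.28, adjusted p = 0.00174).

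In the 2 tumor comparisons 0 of these 30 genes passed by edgeR, and 0 and 2 had an unadjusted p under 0.05. Of 22 genes of the interferon gamma response, 4 were higher with agonist without tumor (among them Gbp5, 1.71 ± 0.37, adjusted p = 0.0387) and 3 with tumor (among them Irgm1, 1.20 ± 0.22, adjusted p = 0.0269). Of all genes, 1.36% and 0.641% were higher in these comparisons. Of 9 tested genes for interferons, their receptors and their kinases, 0 passed in either agonist comparison, and 3 and 0 had an unadjusted p under 0.05. Ifnb1, interferon beta, had 0 counts in all 12 libraries, which allows up to 3 counts in each, or between 0.110 and 0.131 CPM.

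GPI anchors are made and attached by a shared set of enzymes. Of 28 genes for anchor synthesis and processing, 0 passed by edgeR in any comparison, and between 1 and 5 had an unadjusted p under 0.05. The 5 were in the agonist comparison without tumor, where 18.4% of all genes were under it. Pgap1, which remodels the anchor after attachment, had a log2 difference of 1.44 ± 0.43 with agonist in tumor-bearing mice (adjusted p = 0.202) and of 1.79 ± 0.45 with tumor among agonist libraries (adjusted p = 0.175).

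Of the 41 other wider Ly6 family genes found in the files, 32 did not pass the filter on low counts and 14 had 0 counts in every library. Ly6g, a marker of neutrophils, had at most 9 counts in a library. The 9 tested were Ly6h, Ly6k, Ly6m, Psca, Lynx1, Ly6g5b, Plaur, Lypd6b and Pate14, and 1 had a mean of at least 5 CPM in a group. That gene was Lynx1, best known as a modulator of nicotinic acetylcholine receptors in neurons. Lynx1 was measured at 1.38, 1.38 and 1.60 CPM without tumor or agonist, at 3.95, 3.26 and 6.66 with agonist alone, at 1.69, 0.263 and 1.16 with tumor alone and at 5.06, 12.1 and 39.3 with both. All agonist libraries lay above all others.

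Lynx1 was higher with agonist in tumor-bearing mice by 4.20 ± 0.76 on the log2 scale (edgeR, adjusted p = 0.0204), and by 1.67 ± 0.83 without tumor (adjusted p = 0.300), which did not pass. The call with tumor was lost when library 3 with tumor and agonist, or library 1 or library 3 with tumor alone, was left out, and ratios within title numbers ran from 2.99 to 45.7. Plaur, the urokinase receptor, had a log2 difference of 2.04 ± 0.77 in the same comparison (adjusted p = 0.362).

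Transcript estimates show which forms carried these levels. Ly6a-201 held 96.2% of the Ly6a TPM without tumor or agonist, 78.4% with agonist alone, 90.0% with tumor alone and 82.6% with both. Ly6a-204, also protein coding, was between 0 and 0.447 TPM without tumor or agonist and between 7.43 and 14.4 TPM with agonist alone. With tumor it was between 1.12 and 4.43 TPM without agonist and between 9.88 and 28.9 TPM with it. Ly6c2 was split between Ly6c2-201, Ly6c2-203 and Ly6c2-204, whose shares changed between libraries of a group; Ly6c2-203 was listed at 0 in at least 1 library of each tumor group. Ly6e-215 held between 56.1% and 62.9% of the Ly6e TPM in the 4 groups, and Ly6d had 1 transcript.

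Promoter sequences are shown for the 2 Ly-6C genes, which share almost all of their coding sequence and differed in level. The RefSeq table for GRCm38.p6 held 2 of the 6 members. These are the 250 bases before the start, on the minus strand, at chr15:75048838-75049087 for Ly6c1 and chr15:75111972-75112221 for Ly6c2. Capitals mark bases that differ, or have no partner, in an alignment of both.

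Ly6c1: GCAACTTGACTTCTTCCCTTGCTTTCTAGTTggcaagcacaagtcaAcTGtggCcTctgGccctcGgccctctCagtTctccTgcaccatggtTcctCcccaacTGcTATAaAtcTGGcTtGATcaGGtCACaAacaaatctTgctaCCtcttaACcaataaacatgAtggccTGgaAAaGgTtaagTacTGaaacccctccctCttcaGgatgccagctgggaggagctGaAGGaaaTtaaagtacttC
Ly6c2: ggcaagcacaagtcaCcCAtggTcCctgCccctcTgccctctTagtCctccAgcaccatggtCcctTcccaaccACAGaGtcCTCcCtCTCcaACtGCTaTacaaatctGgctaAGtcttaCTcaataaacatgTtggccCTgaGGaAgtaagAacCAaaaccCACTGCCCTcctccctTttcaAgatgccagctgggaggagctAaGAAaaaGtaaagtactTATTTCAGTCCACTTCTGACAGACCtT

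These 2 promoters were 75.9% identical over 216 aligned bases, less than their coding sequences. In the 300 bases of each table entry, neither held the interferon-stimulated response element searched as GAAA, any 2 bases and GAAA (3.44% of 32851 promoters in the table held it), the gamma-activated site searched as TTCNNNGAA (8.30%), or an NF-kB consensus (8.46%), each on both strands. In TPM, Ly6c2 was 15.3 ± 3.59 against 1.23 ± 0.164 for Ly6c1 without tumor or agonist and 83.2 ± 13.6 against 4.90 ± 3.44 with both.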

How the data were processed

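RNA-seq of 12 cDC1 libraries was used. Per the labels' protocols, RNA was extracted with the Qiagen RNeasy Plus Micro kit and libraries were made with a directional NEBNext Ultra II kit. Quantification used Salmon and the mm10 build, per the submitters' processing notes (Salmon version not given in the sources used here). The deposited tables are themselves named for sailfish, a related program, so which of both made the values is not settled. The authors deposited expected counts per transcript, not normalized, and TPM per transcript, scaled by length. Transcripts were summed to genes with GENCODE M21 (112 unassigned transcripts, at most 0.0457% of a library's counts, left out), and expected counts were rounded. edgeR 4.0.16 in R 4.3.3 was run with TMM factors (0.936 to 1.07), filterByExpr (minimum count 10), 1 model of 4 groups over 12 libraries, two-sided quasi-likelihood tests and Benjamini-Hochberg adjustment over 18095 genes. CPM are TMM-normalized. The fit was also run on simulated counts with known changes. These held no differences in cell makeup between libraries, so that run does not vouch for the calls here. Estimates of reads shared by near-identical genes carry a model error that the SE does not hold.

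The members, gene lists and marker lists were chosen with earlier results of these data known. Named were all members, and family genes with at least 5 CPM in a group or past the threshold. Also named were up to 4 genes per list and comparison and the 3 genes most like each member. Transcripts were named from those with at least 1 TPM in a group, not all of them. Chil3, Ms4a4c, Spib, Siglech, Camp, Ccr2, Kdr, Siglec1, C1qb and Marco were named after their values were seen. Alternatives were DESeq2 1.42.0, limma 3.58.1 on log2(TPM + 1), RLE factors, the default dispersion setting, no filter, only the groups compared, a block for the number that opens each title, summed Ly6 genes and leaving out each library. Groups of 3 allow no check for outlying libraries.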

Additional observations from a re-analysis of the deposited data

How the results depend on the processing

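The agonist calls of the members depended on the settings. They are a description, since the members were chosen on these comparisons. With tumor, 4 members were past the threshold, 2 with edgeR's default dispersion setting and 2 with limma-trend on log2(TPM + 1), and between 2 and 4 when 1 library was left out. Without tumor the count was 3, against 1 with limma-trend, 1 with only the groups compared, 0 with the block and between 0 and 4 when 1 library was left out. Leaving out 1 library moved the count for the tumor among agonist libraries, 0, to between 0 and 1; it was 1 with DESeq2, 2 without the filter and 2 with the block. For Lynx1 with agonist and tumor, the count of 1 became 0 with limma-trend and with only the groups compared, and between 0 and 1 with 1 library left out. Ly6i lost its call under 9 of 20 settings without tumor and 14 of 20 with tumor, Ly6a and Ly6c2 under 7 of 20 and 6 of 21 without tumor and under none with tumor. Over all genes the counts past the threshold ran from 22 to 946 for the agonist without tumor (261), from 25 to 316 with tumor (124), from 0 to 166 for the tumor with agonist (36), from 0 to 29 without agonist (0) and from 0 to 18 for the interaction (0).

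Directions changed for estimates near 0 that passed no test. The tumor difference of Ly6c1 without agonist (-0.02) was 0.0058 with RLE factors, 0.20 with limma-trend and 0.0090 without the filter. The Ly6i interaction (0.03) was -0.0085 with DESeq2 and -0.50 with limma-trend. Summing Ly6a, Ly6c1, Ly6c2 and Ly6i, which replaces Ly6i by the sum, gave 1.18 for the tumor with agonist. With 1 library left out, the tumor difference without agonist ran from -0.30 to 0.19 for Ly6a, from -0.33 to 0.35 for Ly6c1 and from -0.53 to 0.018 for Ly6i; the agonist difference of Ly6c1 without tumor ran from -0.24 to 1.12, the Ly6i interaction from -0.33 to 0.37 and the Ly6i tumor difference with agonist from -0.54 to 0.0066. The cause was not tested.

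The number that opens the titles was not taken to pair the libraries, since not every pair's r passed 0.1. All 15 same-numbered pairs had r above 0 (0.0036 to 0.23, median 0.063, 3 over 0.1), against -0.19 to 0.088 (median -0.029, 0 over 0.1) for the 39 others. The block is given here only; with it, 0 members passed for the agonist without tumor and 2 for the tumor with agonist. Depth limits Ly6c1 and Ly6i, at under 7 CPM in every library.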
